A study of Homo sapiens with 12 samples.

Results

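The metalloprotease genes of the MMP, ADAM and ADAMTS families were followed across the 4 groups of cultured BT549 cells, a triple-negative breast cancer cell line. The members were all transcript clusters (probe sets read as 1 value) with a single gene symbol made of MMP, ADAM or ADAMTS and a number. They came to 60 of the 17958 genes on the array, 22 MMP, 21 ADAM and 17 ADAMTS genes. Where a gene had several clusters, the one with the highest mean was used. This applied to ADAM6 alone, whose kept cluster had log2 changes of 0.02, −0.11 and 0.13 and whose other cluster had −0.09, −0.06 and 0.02 in the comparisons of ERβ2 siRNA with control siRNA, ERβ2 plasmid with EV and EV with control siRNA. Clusters shared by several symbols were left out, among them 3 that name an MMP or ADAM gene. ADAM5 and ADAM6 are listed as transcribed pseudogenes in RefSeq.

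Each group held 3 arrays. The cells had received siRNA against ERβ2 (ERβ2 siRNA, RNA taken at 48 h), the pcDNA3-flag-ERβ2 plasmid (ERβ2 plasmid, 24 h), the empty pcDNA3 vector (EV, 24 h) or a control siRNA (control siRNA, 48 h). All groups were grown in the same medium with fetal bovine serum, and every group was transfected, so no array shows untreated cells. Transfection was transient and the samples are of 1 cell line. The methods describe siRNA and plasmid transfection with different reagents, and do not say which siRNA against ERβ2 was used for the arrays. The methods call the replicates biological without saying how the cultures were separated, and the p-values measure the spread between these arrays.

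Matrix metalloproteases (MMPs) are zinc-dependent enzymes that cut collagens, proteoglycans and other parts of the extracellular matrix. Most are secreted as inactive precursors, and the membrane-type members stay at the cell surface. ADAM proteins are membrane proteins with a disintegrin and a metalloprotease domain. The active ones release growth factors, cytokines and receptors from the cell surface, a step called shedding, while several others lack the zinc-binding motif and serve in adhesion. ADAMTS proteins are secreted relatives with thrombospondin repeats that trim procollagens or cut proteoglycans. In breast cancer, these families are studied for their part in invasion and in growth factor release.

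The arrays gave log2 values, on which 1 unit is a doubling of signal, with medians between 5.04 and 5.14 and a mean correlation within groups from 0.9969 to 0.9986. The mesenchymal markers VIM, CDH2, FN1, SPARC and ZEB1 lay above 81.6% or more of the genes, while ESR1 (3.78 to 4.06 over the 12 arrays), PGR (3.34 to 3.7) and EPCAM (3.46 to 4.6) were low, as were PTPRC (3.33 to 3.6), CSF1R, ITGAM and the 3 endothelial markers. Of the 6 leukocyte markers, 1 was higher (CD14, 0.48) and 1 lower (MPO, −0.34) with ERβ2 siRNA, and the mean of the list was 4.62, 4.77, 4.68 and 4.63 with ERβ2 siRNA, ERβ2 plasmid, EV and control siRNA. CD14 and ELANE of that list lay above 49.59% and 46.17% of the genes, and MPO above 26.39%. Not all of the 7 luminal or epithelial markers were low. KRT18, ERBB2 and KRT8 lay above 91.41%, 68.24% and 61.29% of the genes, and CDH1 above 20.17%. Of these 7 markers, 3 rose with ERβ2 siRNA, led by KRT18 (0.88) and KRT8 (0.78). Their part in the results for the metalloproteases was not tested. ESR2, the gene of ERβ, changed by −0.02 with ERβ2 siRNA (standard error, SE, 0.089, adjusted p = 0.913) and by 0.47 with the ERβ2 plasmid (SE 0.10, adjusted p = 0.449), so its cluster, which does not separate the isoforms, gave no check of the siRNA labels.

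A gene was said to rise or fall where limma gave an adjusted p no higher than 0.1, and to be called where the change was also at least 1.5-fold (0.58 on the log2 scale) at an unadjusted p under 0.05. After ERβ2 siRNA, 18 of the 60 metalloprotease genes were higher and 6 lower than with control siRNA, and 36 did not pass. Over all genes, 18.3% were higher and 17.5% lower. There were 6 members called higher, MMP1, MMP3, ADAMTS3, ADAMTS12, ADAMTS6 and ADAM12, against 3.25% of all genes. None was called lower, against 1.26% of all genes, and the largest decrease was −0.43. The 6 lower members became 3 without control siRNA replicate 2 or 3 and 1 without ERβ2 siRNA replicate 3. At an unadjusted p under 0.05, 21 members were higher and 9 lower, and the test of the study's methods also called none lower. The median change was 0.03 over the members and −0.03 over all genes.

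Most of the increases were among the brighter members. Of the 29 members with a mean log2 value of at least 5, 17 were higher and 3 lower with ERβ2 siRNA, against 27.3% and 19.5% of the 11389 genes with such values. Among the 31 dimmer members, 1 was higher (ADAM28) and 3 were lower (ADAM23, MMP26 and MMP27), against 2.54% and 14.2% of the 6569 genes this dim. With each array centred on its median, 14 members were higher and 18 lower in place of 18 and 6 (12.8% and 34.3% of all genes under that scaling), since this scaling moved the median of all genes to −0.12. It also moved the share of higher genes among all called genes to 54%, against 72% as deposited. MMP1, MMP3, ADAMTS3 and ADAMTS12 were called under each of the 4 scalings. ADAM12 rose by less than 1.5-fold after centring (0.51) and when quantile normalized again (0.57). ADAMTS6 did so after centring (0.52), when quantile normalized again (0.52) and with cyclic loess (0.57).

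**Figure D1:**
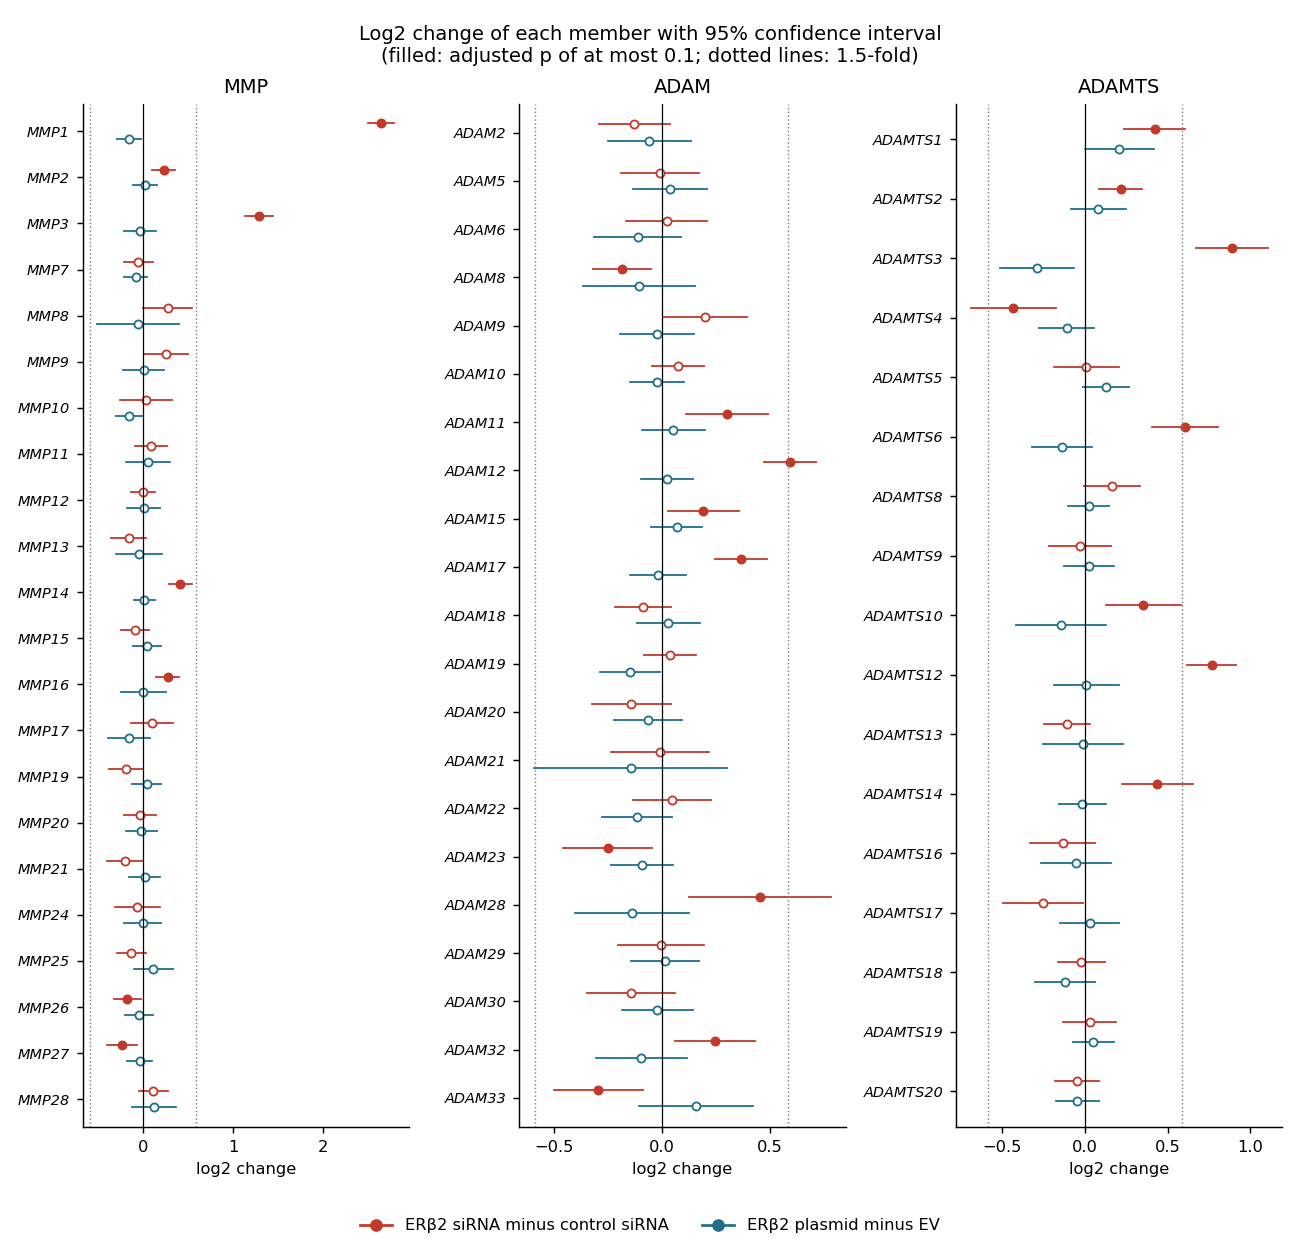
Log2 change of each of the 60 members, with its 95% confidence interval, for ERβ2 siRNA minus control siRNA (red) and ERβ2 plasmid minus EV (blue), 3 arrays per group. Filled points passed (adjusted p no higher than 0.1), and the dotted lines mark a change of 1.5-fold. MMP1 (2.65) and MMP3 (1.29) stand far to the right in red, and no blue point is filled.

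MMP1, the interstitial collagenase that opens the fibrillar collagen triple helix, had the largest increase and the smallest p of all 17958 genes after ERβ2 siRNA. Its log2 values were 9.38, 9.55 and 9.49 with ERβ2 siRNA, against 6.86, 6.77 and 6.85 with control siRNA. The groups were far apart, with a change of 2.65 (95% confidence interval 2.50 to 2.79, 6.26-fold, adjusted p = 8.45e-07). With the ERβ2 plasmid it read 10.46, 10.50 and 10.41, and with EV 10.68, 10.60 and 10.55. All 3 plasmid arrays lay below all 3 EV arrays, with a change of −0.15 (95% confidence interval −0.29 to −0.02) that did not pass over all genes (adjusted p = 0.675 from limma).

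The other collagenases were dim. MMP8, the neutrophil collagenase, read 3.88, 3.54 and 3.80 with ERβ2 siRNA and 3.33, 3.70 and 3.36 with control siRNA, and these groups overlapped. MMP13 had a change of −0.16 (95% confidence interval −0.35 to 0.03).

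MMP3, stromelysin 1, which cuts proteoglycans and can activate the precursor of MMP1, was the member with the next largest change. It read 6.52, 6.51 and 6.51 with ERβ2 siRNA, against 5.11, 5.22 and 5.35 with control siRNA, a change of 1.29 (SE 0.069, 2.44-fold, adjusted p = 1.16e-05). Its values with the ERβ2 plasmid were 6.87, 7.15 and 6.96, around the 7.04, 7.06 and 6.99 of EV. The related stromelysin MMP10 did not share the response to ERβ2 siRNA, at 3.68, 3.56 and 4.02 against 3.82, 3.81 and 3.53 with control siRNA (change 0.03, 95% confidence interval −0.25 to 0.32). MMP11, stromelysin 3, changed by 0.09 (95% confidence interval −0.08 to 0.27).

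The gelatinases, which degrade denatured collagen and basement membrane collagen, changed little at 48 h. MMP2 read 9.41, 9.42 and 9.42 with ERβ2 siRNA, against 9.23, 9.22 and 9.11 with control siRNA. The groups did not overlap, with a rise of 0.23 (SE 0.057, adjusted p = 0.0173) that no longer passed after centring on the array medians (0.14, adjusted p = 0.14, and 0.00159 to 0.14 over its 18 alternatives). MMP9 read 6.17, 6.12 and 6.11 with ERβ2 siRNA, against 6.0, 5.60 and 6.03 with control siRNA, where replicate 2 was low. Its change of 0.26 just missed the threshold (95% confidence interval 0.01 to 0.50, adjusted p = 0.115), and it passed in 5 of 18 alternatives, among them those without control siRNA replicate 1 (0.32) and replicate 3 (0.33). Without the low replicate 2 of control siRNA the MMP9 change was 0.12.

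Among the membrane-type MMPs, MMP14, which activates the precursor of MMP2 at the cell surface, rose in every ERβ2 siRNA array. It read 9.90, 9.80 and 9.80 with ERβ2 siRNA and 9.42, 9.42 and 9.41 with control siRNA. The ERβ2 plasmid arrays read 9.41, 9.42 and 9.47 and the EV arrays 9.41, 9.41 and 9.43, so 3 of the 4 groups had means within 0.02 of each other. The rise was 0.42 (SE 0.055, 1.33-fold, adjusted p = 0.000839). MMP16, another membrane-type enzyme, also rose (0.28, SE 0.056, adjusted p = 0.0072). The other 4 of the 6 measured membrane-type genes, MMP15, MMP17, MMP24 and MMP25, did not pass, with changes from −0.13 to 0.10.

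The matrilysins MMP7 and MMP26 and the 6 remaining MMPs gave low values, and none of these 8 rose. MMP26 (−0.17) and MMP27 (−0.23) were lower with ERβ2 siRNA, at mean signals above those of 4.405% and 9.155% of genes. MMP26 did not pass without control siRNA replicate 2 (−0.16) or 3 (−0.14) or without ERβ2 siRNA replicate 1 (−0.18) or 3 (−0.14). MMP27 did not pass without control siRNA replicate 1 (−0.18) or 3 (−0.23) or without ERβ2 siRNA replicate 2 (−0.21) or 3 (−0.20). MMP12, the macrophage elastase, lay above 1.42% of genes and changed by 0.00 (95% confidence interval −0.13 to 0.14).

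**Figure D2:**
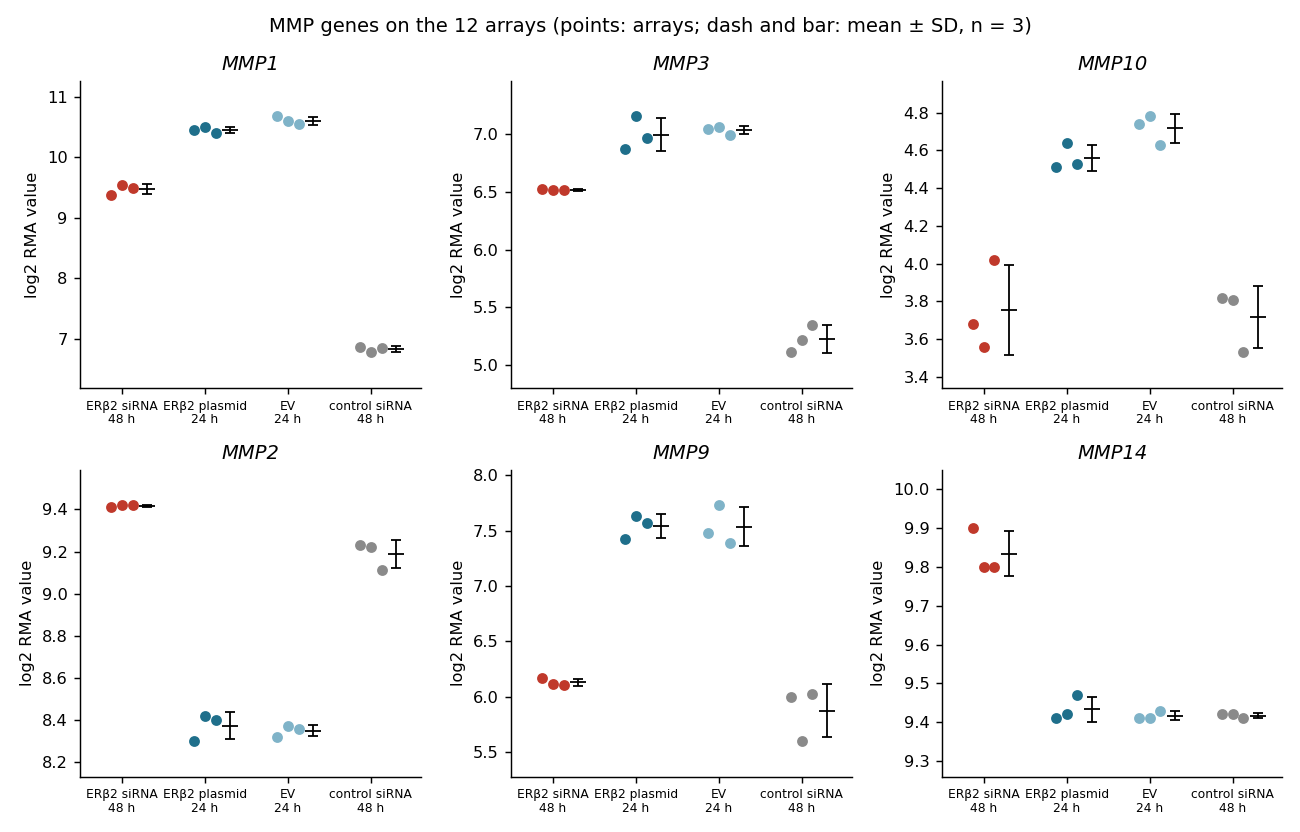
Log2 RMA values of 6 MMP genes on each of the 12 arrays, by group, with the mean and SD of each group (n = 3) beside the points. Axes do not start at 0 and differ between genes. MMP14 is high in the ERβ2 siRNA arrays alone, while MMP1 and MMP3 are lowest in the control siRNA arrays and MMP9 and MMP10 are high in both 24 h groups.

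Of the 12 ADAMs that carry the metalloprotease motif, 4 rose (ADAM12, ADAM15, ADAM17 and ADAM28) and 2 fell (ADAM8 and ADAM33) with ERβ2 siRNA. Over all genes, 18.3% rose and 17.5% fell. ADAM12, an enzyme that releases HB-EGF and cuts IGF-binding proteins, was the ADAM with the largest rise. It read 10.81, 10.86 and 10.83 with ERβ2 siRNA and 10.20, 10.25 and 10.26 with control siRNA, and the ERβ2 plasmid (10.41, 10.36 and 10.36) and EV arrays (10.31, 10.37 and 10.38) lay between them. The change of 0.60 (SE 0.053, 1.51-fold, adjusted p = 0.000102) stood just above the 1.5-fold limit and lay just below it when control siRNA replicate 1 or ERβ2 siRNA replicate 2 was left out (0.58 each), while the test itself was passed in all 18 alternatives.

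ADAM17, the enzyme that sheds TNF and several EGF receptor ligands, rose as well. It read 9.37, 9.35 and 9.42 with ERβ2 siRNA, 9.59, 9.48 and 9.46 with the ERβ2 plasmid, 9.51, 9.54 and 9.53 with EV and 9.0, 9.04 and 9.0 with control siRNA. The control siRNA arrays were the lowest, and the rise over them with ERβ2 siRNA was 0.37 (SE 0.053, 1.29-fold, adjusted p = 0.0013). ADAM10, the related sheddase that releases Notch receptors and cadherins, did not pass. It read 10.46, 10.49 and 10.45 with ERβ2 siRNA and 10.36, 10.38 and 10.43 with control siRNA, a change of 0.08 (95% confidence interval −0.04 to 0.20). ADAM9 had the highest mean signal of the 60 members, above that of 99.35% of genes, and read 11.95, 12.10 and 12.13 with ERβ2 siRNA, 11.76, 11.85 and 11.72 with the ERβ2 plasmid, 11.86, 11.66 and 11.88 with EV and 11.70, 11.98 and 11.90 with control siRNA. The groups overlapped, with a change after ERβ2 siRNA of 0.20 (95% confidence interval 0.01 to 0.39, adjusted p = 0.118).

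The ADAMs other than ADAM12 and ADAM17 that passed after ERβ2 siRNA had smaller changes than ADAM12. Of these, all but ADAM11 lost the pass when single arrays were left out. ADAM28, a disintegrin metalloprotease first known from lymphocytes, read 4.87, 4.31 and 4.41 with ERβ2 siRNA, 4.19, 3.76 and 3.92 with the ERβ2 plasmid, 3.98, 4.06 and 4.24 with EV and 3.9, 4.11 and 4.21 with control siRNA. Replicate 1 of ERβ2 siRNA was the highest. The ADAM28 rise was 0.46 (SE 0.14), was 0.29 without that replicate, and did not pass without control siRNA replicate 1 (0.37). ADAM15 rose by 0.19 (SE 0.072), but did not pass when control siRNA replicate 1 (0.15) or 2 (0.17), or replicate 2 (0.17) or 3 (0.19) of ERβ2 siRNA, was left out. ADAM33 was lower by −0.29 (SE 0.090), and did not pass without ERβ2 siRNA replicate 3 (−0.25). Without control siRNA replicate 3 the ADAM33 change was −0.195. ADAM8 was lower by −0.18 (SE 0.060), and did not pass when control siRNA replicate 2 (−0.16), or replicate 2 (−0.16) or 3 (−0.19) of ERβ2 siRNA, was left out. Of the 9 members that lack the motif or are pseudogenes, ADAM11 (0.30, SE 0.083) and ADAM32 (0.25, SE 0.081) rose and ADAM23 (−0.25, SE 0.090) fell. ADAM32 did not pass when control siRNA replicate 2 (0.17), or replicate 2 or 3 of ERβ2 siRNA (0.22 each), was left out. ADAM23, at a mean signal above 8.152% of genes, did not pass when control siRNA replicate 2 (−0.26) or 3 (−0.16), or replicate 1 (−0.26) or 3 (−0.20) of ERβ2 siRNA, was left out.

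The ADAMTS family held 3 of the 6 genes called higher with ERβ2 siRNA, where 3.25% of all genes were called higher. Of its 17 members, 7 were higher and 1 lower, against 18.3% and 17.5% of all genes. All 3 procollagen N-proteinases, the enzymes that remove the amino-terminal propeptide of fibrillar procollagens, rose. ADAMTS3 read 6.27, 6.53 and 6.60 with ERβ2 siRNA and 5.51, 5.53 and 5.70 with control siRNA, groups well apart at a change of 0.89 (SE 0.095, 1.85-fold, adjusted p = 0.000268). ADAMTS14 rose by 0.44 (SE 0.094, adjusted p = 0.0094). ADAMTS2 read 9.65, 9.54 and 9.56 with ERβ2 siRNA and 9.38, 9.35 and 9.37 with control siRNA, a rise of 0.22 (SE 0.056, adjusted p = 0.0205) that did not pass after centring on the array medians (0.13, adjusted p = 0.12, and 0.00185 to 0.12 over its 18 alternatives). ADAMTS2 had the highest mean signal of the family and read 9.57, 9.44 and 9.47 with the ERβ2 plasmid and 9.33, 9.54 and 9.36 with EV, which overlapped.

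ADAMTS12, which cuts cartilage oligomeric matrix protein, read 9.30, 9.18 and 9.31 with ERβ2 siRNA, 8.30, 8.29 and 8.24 with the ERβ2 plasmid, 8.17, 8.46 and 8.17 with EV and 8.57, 8.43 and 8.49 with control siRNA. The ERβ2 siRNA arrays stood above all others, and the change was 0.77 (SE 0.064, 1.70-fold, adjusted p = 8.03e-05). ADAMTS6, a secreted member linked to heart development in mice, read 7.78, 7.67 and 7.72 with ERβ2 siRNA, 8.48, 8.27 and 8.37 with the ERβ2 plasmid, 8.46, 8.64 and 8.43 with EV and 7.28, 6.94 and 7.13 with control siRNA. The change after ERβ2 siRNA was 0.61 (SE 0.087, 1.52-fold, adjusted p = 0.00126), and was below 1.5-fold when control siRNA replicate 2 (0.52) or ERβ2 siRNA replicate 1 (0.58) was left out. ADAMTS10, which binds fibrillin, also rose (0.35, SE 0.099).

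The proteoglycanases, which cut aggrecan and versican, went both ways. ADAMTS1 read 6.05, 5.78 and 5.83 with ERβ2 siRNA and 5.54, 5.44 and 5.41 with control siRNA, a rise of 0.42 (SE 0.081, adjusted p = 0.00529). ADAMTS4, aggrecanase 1, had the largest decrease of the 60 members, −0.43 (SE 0.11, adjusted p = 0.0225). ADAMTS5, aggrecanase 2, read 3.77, 3.89 and 4.06 with ERβ2 siRNA and 3.90, 3.99 and 3.80 with control siRNA, and these overlapped (change 0.01, 95% confidence interval −0.19 to 0.21). ADAMTS1 and ADAMTS5 are neighbours on chromosome 21.

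**Figure D3:**
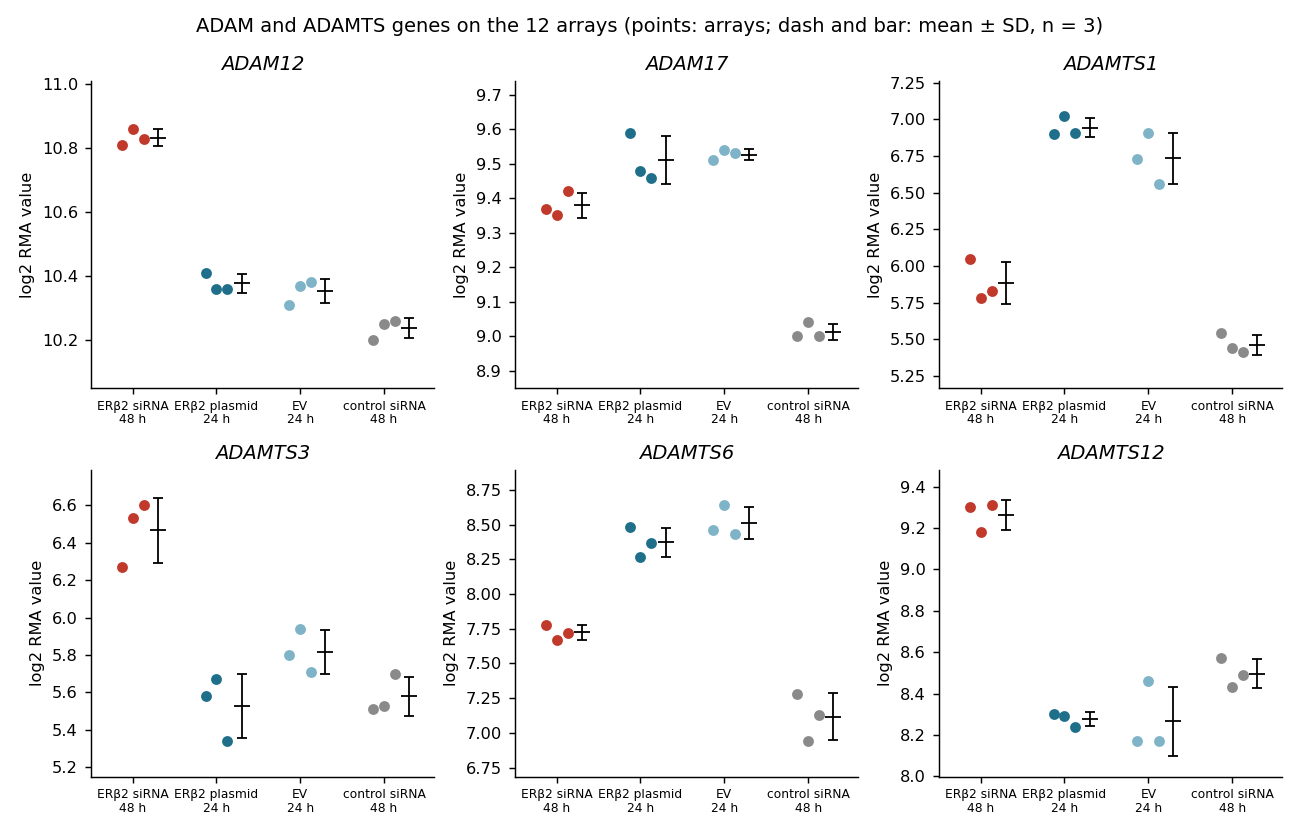
Log2 RMA values of 6 ADAM and ADAMTS genes on each of the 12 arrays, by group, with the mean and SD of each group (n = 3) beside the points. Axes do not start at 0 and differ between genes. ADAM12, ADAMTS3 and ADAMTS12 are highest in the ERβ2 siRNA arrays, while ADAMTS1, ADAMTS6 and ADAM17 are highest in the 24 h groups.

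The promoters of the 3 called ADAMTS genes are shown as the regulatory sequence next to these rises. The windows are from RefSeq (GRCh38.p14), run from 250 bases before the gene start to 50 after it, and were at hand for 34 of the 60 members. The letters of 3 motifs were searched on both strands: the AP-1 site TGANTCA, the cyclic AMP response element TGACGTCA and the TATA box TATAAA. No matches overlapped in the windows shown, and matches are in capitals. The minus-strand windows are chr4:72569172-72569471 for ADAMTS3, chr5:65481871-65482170 for ADAMTS6 and chr5:33891941-33892240 for ADAMTS12.
ADAMTS3 promoter: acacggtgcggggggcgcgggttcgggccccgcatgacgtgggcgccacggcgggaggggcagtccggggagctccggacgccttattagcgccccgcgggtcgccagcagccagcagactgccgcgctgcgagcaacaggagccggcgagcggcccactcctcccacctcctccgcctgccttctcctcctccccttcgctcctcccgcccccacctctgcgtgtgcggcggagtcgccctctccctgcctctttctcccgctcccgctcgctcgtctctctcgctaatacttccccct
ADAMTS6 promoter: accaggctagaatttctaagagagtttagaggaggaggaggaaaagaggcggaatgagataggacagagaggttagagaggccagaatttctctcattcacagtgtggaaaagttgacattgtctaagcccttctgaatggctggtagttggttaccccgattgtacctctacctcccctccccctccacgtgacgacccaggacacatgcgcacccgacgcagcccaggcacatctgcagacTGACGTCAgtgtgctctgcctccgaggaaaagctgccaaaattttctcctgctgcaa
ADAMTS12 promoter: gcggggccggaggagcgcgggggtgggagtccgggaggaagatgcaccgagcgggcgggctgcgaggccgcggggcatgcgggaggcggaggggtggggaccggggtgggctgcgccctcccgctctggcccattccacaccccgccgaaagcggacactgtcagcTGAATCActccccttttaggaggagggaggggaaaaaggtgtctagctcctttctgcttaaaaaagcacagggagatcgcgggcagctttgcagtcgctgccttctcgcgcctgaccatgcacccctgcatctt
ADAMTS12 held TGAATCA, a match to the AP-1 letters TGANTCA (N is any base), 84 bases before its start. Such a match was in 7.71% of all 35116 promoters and in 4 of the 34 members. ADAMTS6 held the cyclic AMP response element 7 bases before its start, which 1.85% of promoters had and no other member did. None of the 3 motifs was in the ADAMTS3 window. These matches describe the letters and show no binding.

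The ERβ2 plasmid left the metalloprotease genes close to their EV levels. None of the 60 passed, against 0.0111% of all genes (2 genes), and limma with the other settings and the test of the study's methods gave no call either. At an unadjusted p under 0.05, 1 member was higher (ADAMTS1) and 4 were lower (ADAMTS3, MMP1, MMP10 and ADAM19), 5 of 60 against 7.02% of all genes. The arrays of both groups did not overlap for 1 member on the higher side (ADAM15, 5.35% of all genes) and 3 on the lower side (MMP1, ADAMTS3 and ADAM19, 6.67% of all genes). These shares are near those of all genes. The median change of the members was −0.02, and the single changes ran from −0.29 to 0.21.

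ADAMTS3 had the smallest p of the members in this comparison. It read 5.58, 5.67 and 5.34 with the ERβ2 plasmid and 5.80, 5.94 and 5.71 with EV, all plasmid arrays below all EV arrays, at a change of −0.29 (95% confidence interval −0.51 to −0.06, adjusted p = 0.591 from limma). MMP10 read 4.51, 4.64 and 4.53 with the ERβ2 plasmid and 4.74, 4.78 and 4.63 with EV, a change of −0.16 (95% confidence interval −0.30 to −0.01, adjusted p = 0.682). ADAMTS1 read 6.90, 7.02 and 6.91 with the ERβ2 plasmid and 6.73, 6.91 and 6.56 with EV, a change of 0.21 (95% confidence interval 0.00 to 0.42, adjusted p = 0.706). MMP8 had the widest interval of the members named with values in every array (−0.05, 95% confidence interval −0.51 to 0.40). For MMP2, MMP9, ADAM10 and ADAMTS5 the intervals of the plasmid effect were narrower. MMP2 read 8.30, 8.42 and 8.40 with the ERβ2 plasmid and 8.32, 8.37 and 8.36 with EV (0.02, 95% confidence interval −0.11 to 0.15). MMP9 read 7.42, 7.63 and 7.57 with the ERβ2 plasmid and 7.48, 7.73 and 7.39 with EV (0.01, 95% confidence interval −0.22 to 0.23). ADAM10 read 10.13, 10.15 and 10.13 with the ERβ2 plasmid and 10.21, 10.09 and 10.17 with EV (−0.02, 95% confidence interval −0.15 to 0.11). ADAMTS5 read 3.81, 3.82 and 3.72 with the ERβ2 plasmid and 3.73, 3.62 and 3.61 with EV (0.13, 95% confidence interval −0.01 to 0.27).

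The difference between both effects (ERβ2 siRNA minus control siRNA, less ERβ2 plasmid minus EV) was tested in 1 fit over the 12 arrays. It was called higher for 6 members, against 4.04% of all genes, and lower for none, against 1.46% of all genes (2 members were lower at an unadjusted p under 0.05). The 6 were MMP1 (2.80, SE 0.083), MMP3 (1.32), ADAMTS3 (1.17), ADAMTS12 (0.76), ADAMTS6 (0.74) and ADAM28 (0.59, SE 0.20). With no limit on the fold, 14 members passed as higher and 1 as lower, together 25% of the members against 26.4% of all genes. The lower one was ADAM33 (−0.45, adjusted p = 0.0629 from limma). Those that passed below 1.5-fold included MMP14 (0.40, adjusted p = 0.00101), ADAM17 (0.38, adjusted p = 0.00202), ADAM12 (0.57, adjusted p = 6.37e-05) and MMP2 (0.21, adjusted p = 0.0685). The pairs differ in time and in the nucleic acid and reagent used, so what sets the difference cannot be told apart.

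Several members had larger changes between EV and control siRNA than in either comparison of ERβ2. The EV and control siRNA groups differ in time (24 h and 48 h), in the nucleic acid and in the reagent together, which cannot be told apart, and the comparison uses the same control siRNA arrays as the one for ERβ2 siRNA. With EV, 13 members were higher and 13 lower than with control siRNA, against 19.2% and 22.4% of all genes. Called were 7 higher (5.57% of all genes) and 2 lower (1.3% of all genes). With each array centred on its median, which moved the median of all genes to −0.21 in this comparison, 9 members were higher and 32 lower (12.3% and 57.4% of all genes under that scaling), and the share of higher genes among all called genes was 49.3%, against 81.1% as deposited (68.6% after quantile normalization again).

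MMP1 was again the member with the largest change, higher with EV by 3.78 (SE 0.064, 13.8-fold, adjusted p = 1.76e-09), followed by MMP3 (1.80, SE 0.074), MMP9 (1.66, SE 0.13), ADAMTS6 (1.39, SE 0.098), ADAMTS1 (1.27, SE 0.092), MMP10 (1.0, SE 0.090) and MMP8 (0.72, SE 0.21). MMP8 was even at 4.16, 4.12 and 4.12 with the ERβ2 plasmid and read 3.81, 4.71 and 4.04 with EV, where replicate 2 was high. Without EV replicate 2 the MMP8 change was 0.46, under 1.5-fold. All 3 collagenases passed as higher with EV, since MMP13 did too (0.30, SE 0.11). Lower with EV were MMP2 (−0.84, SE 0.062, adjusted p = 2.47e-05) and MMP11, which read 7.06, 6.83 and 6.98 with ERβ2 siRNA, 6.29, 6.14 and 6.47 with the ERβ2 plasmid, 6.26, 6.07 and 6.39 with EV and 6.81, 6.81 and 6.97 with control siRNA. The MMP11 change was −0.62 (SE 0.092), and it was under 1.5-fold without control siRNA replicate 3 (−0.57) or EV replicate 2 (−0.54).

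Set side by side, the changes against control siRNA fell into several kinds. MMP1, MMP3, MMP16, ADAM11, ADAM17, ADAMTS1, ADAMTS3, ADAMTS6 and ADAMTS10 were higher both with ERβ2 siRNA and with EV. MMP14, ADAM12, ADAM15, ADAM28, ADAM32 and ADAMTS2 were higher with ERβ2 siRNA and did not pass with EV. MMP2 (0.23 with ERβ2 siRNA, −0.84 with EV), ADAMTS12 (0.77 and −0.23) and ADAMTS14 (0.44 and −0.22) had opposite signs. MMP8, MMP9, MMP10 and MMP13 were higher with EV and did not pass with ERβ2 siRNA. ADAM8 was lower with both. ADAM23, ADAM33, ADAMTS4, MMP26 and MMP27 were lower with ERβ2 siRNA and did not pass with EV. ADAM5, ADAM10, ADAM19, ADAM22, ADAMTS5, ADAMTS17, MMP11, MMP15 and MMP28 were lower with EV and did not pass with ERβ2 siRNA. Since the control siRNA arrays enter both comparisons, a low or high value in them would move both columns the same way.

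**Figure D4:**
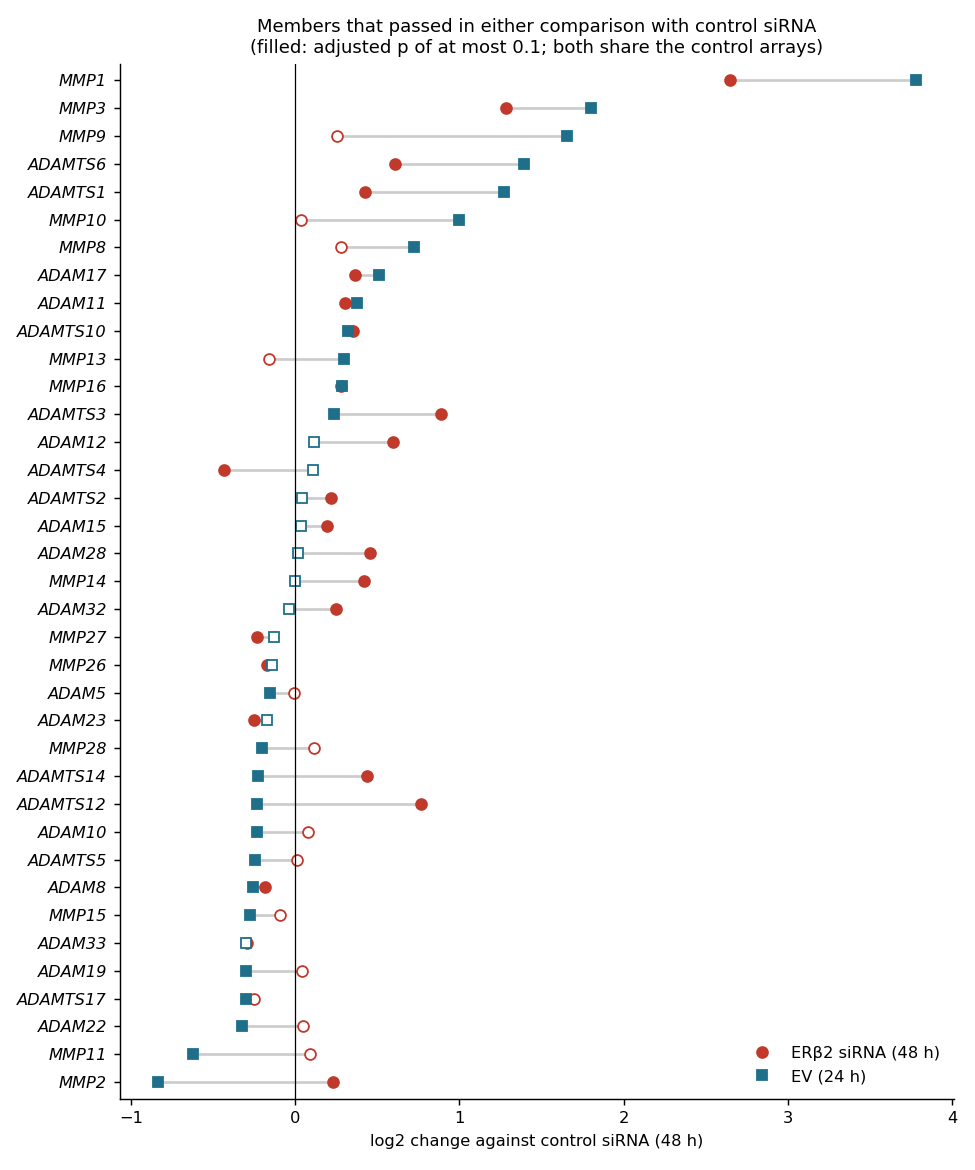
Log2 change against control siRNA (48 h) with ERβ2 siRNA (red circles, 48 h) and with EV (blue squares, 24 h) for the 37 members that passed in either comparison, ordered by the EV change. Filled symbols passed (adjusted p no higher than 0.1), and both comparisons share the 3 control siRNA arrays. MMP1, MMP3, ADAMTS1 and ADAMTS6 are right of 0 in both, and MMP2 lies on opposite sides.

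A row of 9 MMP genes stands on chromosome 11, in the order MMP7, MMP20, MMP27, MMP8, MMP10, MMP1, MMP3, MMP12 and MMP13 by RefSeq. With ERβ2 siRNA, the neighbours MMP1 and MMP3 rose and the dim MMP27 fell (−0.23), while MMP10, next to MMP1 on the other side, did not pass. With EV against control siRNA, 5 of the 9 passed as higher (19.2% of all genes). They were MMP8, MMP10, MMP1, MMP3 and MMP13, of which the first 4 are adjacent. MMP12, between MMP3 and MMP13, had group means from 2.97 to 3.02. The promoters of MMP8 (chr11:102724905-102725204) and MMP10 (chr11:102780579-102780878), both on the minus strand in RefSeq GRCh38.p14, are shown with the same motifs in capitals, as the members of the row that were called with EV and have a window in the table.
MMP8 promoter: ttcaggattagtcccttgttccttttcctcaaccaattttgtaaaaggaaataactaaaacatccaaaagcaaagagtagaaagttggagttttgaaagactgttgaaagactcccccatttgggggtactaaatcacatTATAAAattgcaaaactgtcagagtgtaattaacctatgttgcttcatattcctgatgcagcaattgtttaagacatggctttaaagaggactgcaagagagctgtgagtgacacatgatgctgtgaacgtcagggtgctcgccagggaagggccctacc
MMP10 promoter: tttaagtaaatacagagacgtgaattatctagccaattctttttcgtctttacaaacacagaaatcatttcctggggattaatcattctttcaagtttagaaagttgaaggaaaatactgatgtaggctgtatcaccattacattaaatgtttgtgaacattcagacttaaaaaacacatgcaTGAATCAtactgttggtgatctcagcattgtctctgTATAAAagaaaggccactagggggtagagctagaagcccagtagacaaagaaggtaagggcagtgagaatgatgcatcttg
MMP10 held TGAATCA, a match to the AP-1 letters, 67 bases before its start and TATAAA 31 bases before it. MMP8 held the letters TATAAA 110 bases before its start and no match to the AP-1 letters in this window. TATAAA was in 11.5% of all promoters and in 8 of the 34 members with a window. These are matches of letters only.

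**Figure D5:**
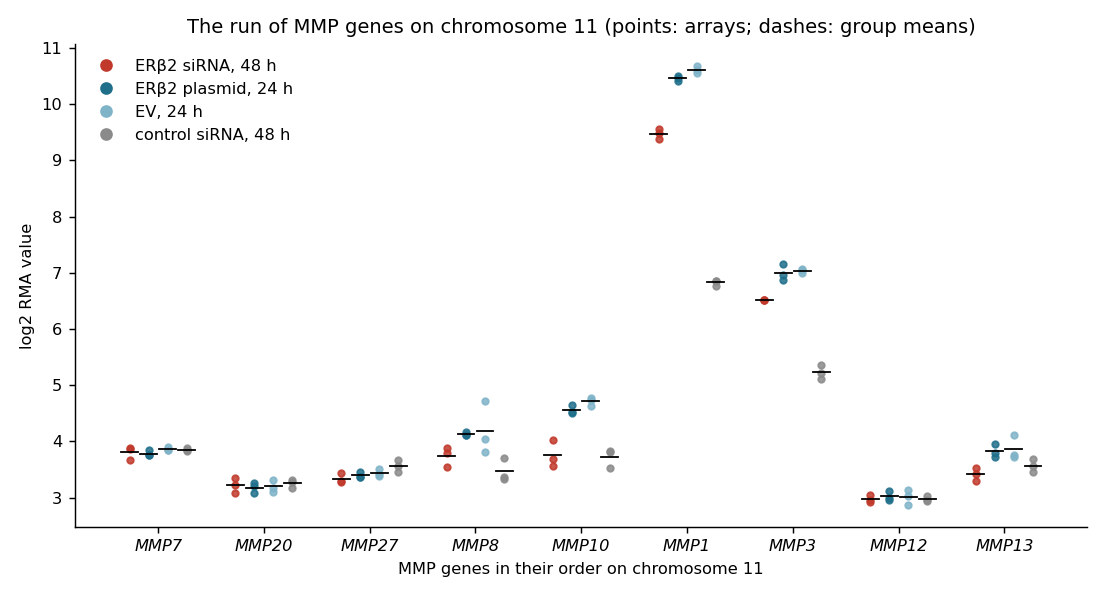
Log2 RMA values of the 9 MMP genes in their order on chromosome 11, for the 3 arrays of each group (points) with the group mean (dash). MMP1 and MMP3 are above control siRNA in the other 3 groups, and MMP10 and MMP8 are higher in the 24 h groups, while MMP20, MMP27 and MMP12 stay between 2.87 and 3.66 on all arrays.

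Genes that act with the metalloproteases were counted from fixed lists. Of 13 inhibitors measured, 4 were higher and 1 lower with ERβ2 siRNA. RECK, a membrane-anchored inhibitor of MMPs, rose by 1.19 (SE 0.075), TFPI2, a secreted inhibitor of plasmin and other serine proteases, by 0.94 (SE 0.055) and SPOCK1 by 0.35 (SE 0.057), while TIMP3, a tissue inhibitor held in the matrix, fell by 0.48 (SE 0.058). TIMP1 changed by −0.08 (95% confidence interval −0.22 to 0.05). TIMP2 had means of 10.53 with ERβ2 siRNA, 10.24 with control siRNA and 10.96 with EV. RECK, TFPI2 and SPOCK1 also had higher means with EV (7.13, 10.71 and 10.52) than with control siRNA (6.63, 9.7 and 9.33). TIMP3 had a lower mean with EV (8.62) than with control siRNA (8.92). In that comparison, 6 of the 13 inhibitors passed as higher and 3 as lower, against 19.2% and 22.4% of all genes. With the ERβ2 plasmid, RECK changed by −0.17 (SE 0.059, adjusted p = 0.601), on the other side of 0 from its change with ERβ2 siRNA.

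Of 25 activators and partners, 8 were higher and 3 lower with ERβ2 siRNA. RHBDF2, which helps ADAM17 on its way to the cell surface, rose by 0.82 (SE 0.095). FURIN, which removes the propeptide of many ADAMs and membrane-type MMPs, rose by 0.44 (SE 0.076). TSPAN15, a partner of ADAM10, was lower by −0.58 (SE 0.096), and SH3PXD2A, a scaffold of invadopodia, by −0.49 (SE 0.067). Of 30 membrane proteins that ADAM10 or ADAM17 can shed, 9 were higher and 4 lower, with ICAM1 (0.98), MET (0.51) and HBEGF (0.49) among the first and AXL (−0.42) among the others. Of 11 proteoglycans and matrix proteins that ADAMTS enzymes cut, 4 were higher and 1 lower, led by VCAN (1.03, SE 0.12), MATN2 (0.71) and MATN3 (0.47). Of 8 ADAMTS-like proteins and fibrillins, 3 were higher and 1 lower, among them FBN1 (0.71) and FBN2 (0.53). Of 13 other zinc metalloproteases, 2 were higher and none lower. These shares can be read against the 18.3% and 17.5% of all genes given above. With EV against control siRNA, 5 activators and partners were higher and 7 lower, and 12 and 1 of the shed proteins. Of the proteins that ADAMTS enzymes cut, 5 were higher and 1 lower there. Every gene named here as higher with ERβ2 siRNA also had a higher mean with EV than with control siRNA. Examples are VCAN (6.997 against 4.697) and FURIN (6.95 against 6.84). TSPAN15 (5.68 against 6.74) had a lower mean with EV, and AXL (10.77 against 10.76) did not.

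Of 16 AP-1, ETS and RUNX factors known at MMP promoters, 5 were higher and 6 lower with ERβ2 siRNA, against 18.3% and 17.5% of all genes. ETV4 (−0.87, SE 0.083), ETV1 (−0.71, SE 0.073) and FOSL1 (−0.51, SE 0.053) were lower and ETS2 (0.62, SE 0.051) was higher. With EV against control siRNA, 8 of the 16 were higher and 5 lower, against 19.2% and 22.4% of all genes. ETV1 (−0.85) and ETV4 (−0.38) were lower and ETS2 (0.67) higher there too. FOSL1, lower with ERβ2 siRNA, had a higher mean with EV (10.08) than with control siRNA (9.96). With the ERβ2 plasmid against EV, no gene of the lists of inhibitors, activators, shed proteins, proteoglycans or ADAMTS-like proteins passed. No other zinc metalloprotease and no AP-1, ETS or RUNX factor of the lists did either. Among the 16 AP-1, ETS and RUNX factors, 7 had all plasmid arrays above all EV arrays (5.35% of all genes) and 2 had them below (6.67% of all genes). An unadjusted p under 0.05 from limma was found for 5 of the 16 (7.02% of all genes). FOS had the largest of these changes (0.54, SE 0.095, adjusted p = 0.325 from limma), followed by JUNB (0.20) and ELK1 (0.20) on the higher side, and ETV1 (−0.23) was on the lower side. These genes were singled out after their values were seen.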

How the data were processed

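Total RNA of BT549 cells was measured on 12 Affymetrix Human Gene 1.1 ST arrays, 3 in each of 4 groups given by the labels. The deposited log2 values were made by the authors with RMA in the Affymetrix Expression Console (background correction, normalization between arrays, 1 value for each cluster of probes). The software version and the logarithm's base are not given in the sources used here, and the base was taken as 2. The number of arrays limits the precision. Of 33297 clusters, 19181 had 1 symbol, 2055 several and 12061 were not in the annotation; 17958 genes were tested after the cluster with the highest mean was kept.

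Effects were fitted with limma 3.58.1 in R 4.3.3 (lmFit, eBayes, no replicate block) on the 6 arrays of each comparison, with Benjamini-Hochberg adjustment over all genes. The thresholds follow the study's methods (adjusted p of at most 0.1, 1.5-fold, p under 0.05). The study's own test was Student's t-test with q-values, run here as an alternative. Other alternatives were other rows, a filter on dim genes, 3 scalings, an intensity trend, 1 fit for all groups, stricter thresholds, a replicate block, and fits without 1 array each. The procedure was tested on simulated data.

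All 60 gene IDs matched RefSeq, which gave names, chromosomes, neighbours and promoters. The sources used here give no build for the array's probes. Named with values in every array were the members called in any comparison, MMP1, MMP2, MMP3, MMP9, MMP14, ADAM10, ADAM17, ADAMTS1 and ADAMTS5, the 2 members with the highest mean in each family, and the 3 with the smallest p for the plasmid. From each list of other genes, up to 4 that passed are named. TIMP1 and TIMP2 were added after their values were seen. The members and lists were chosen with earlier results of these data known. Fold changes of other kinds were not used. The study's qPCR, protein and tumor data were not analysed here.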

Additional observations from a re-analysis of the deposited data

Results flagged for a closer look

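The effect of ERβ2 siRNA (against control siRNA) differed from that of the ERβ2 plasmid (against EV) by at least 1.5-fold for 6 members. The difference itself was tested over the 12 arrays, and other members passed below 1.5-fold. The difference was 2.80 for MMP1 (SE 0.083, adjusted p = 2.53e-09 from limma), 1.32 for MMP3 (SE 0.11, adjusted p = 4.06e-06), 1.17 for ADAMTS3 (SE 0.15, adjusted p = 0.000127), 0.76 for ADAMTS12 (SE 0.11, adjusted p = 0.00037) and 0.74 for ADAMTS6 (SE 0.12, adjusted p = 0.00108). For ADAM28 it was 0.59 (SE 0.20, adjusted p = 0.0609). The ADAM28 difference lost its call without control siRNA replicate 1 (0.51), ERβ2 siRNA replicate 1 (0.42), EV replicate 3 (0.52) or ERβ2 plasmid replicate 2 (0.50) or 3 (0.58). Time, nucleic acid and reagent differ between both pairs and cannot be told apart from the treatment.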

How the results depend on the processing

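The alternatives were run for 62 pairs of a named member and a comparison (30 genes), which gave 1144 values. Of these, 1034 were counted as keeping their sign and side of the threshold, 89 no longer passed and 6 passed where they had not. The other 15 changed sign, all in 8 pairs that did not pass to begin with (ADAMTS5, ADAM10, ADAM17, MMP3, MMP9 and MMP14), and no change that passed was reversed. The 1034 include MMP14 in EV against control siRNA, whose change of 0 has no sign to keep. Its values there ran from −0.155 to 0.016, with a lowest adjusted p of 0.0773 from limma, which is a pass. For ERβ2 siRNA, the 6 members called higher became 2 at a 2-fold limit (MMP1 and MMP3) and 5 to 6 without single arrays. They became 4 when quantile normalized again or centred on the array medians, and 5 with cyclic loess. The 18 that passed as higher became 17 to 19 without single arrays. The 6 that passed as lower became 1 with all clusters in the fit, 3 with a mean of at least 5, 2 with cyclic loess, 18 after centring on the array medians, 1 with Student's t-test and Benjamini-Hochberg adjustment and 3 with the limit on the adjusted p at 0.05. Without single arrays they numbered 1 to 8, with 1 without ERβ2 siRNA replicate 3 and 3 without control siRNA replicate 2 or 3. For EV against control siRNA, the 2 called lower became 0 at a 2-fold limit and 1 to 2 without single arrays, with 1 without control siRNA replicate 3 or EV replicate 2. The 13 that passed as lower there became 8 with all clusters in the fit, 32 after centring, 23 with q-values, 8 with that limit at 0.05 and 9 to 13 without single arrays. The 6 differences called higher became 3 at a 2-fold limit and 5 to 7 without single arrays. The cause of these shifts was not tested. With the replicate number as a block, 6 members were called higher for ERβ2 siRNA and 20 and 6 passed as higher and lower, 7 and 2 were called for EV against control siRNA, and 0 passed for the plasmid. The deviations of arrays from their group means were also correlated between ERβ2 siRNA and control siRNA. For replicates 1, 2 and 3, arrays with the same number correlated at 0.22, 0.14 and 0.014. The best values with another number were −0.07, 0.06 and 0.06. The same number thus gave the higher value for replicates 1 and 2 and the lower for replicate 3. This does not settle whether the numbers are pairs, and the main fit took the arrays as unpaired.

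With 3 arrays in a group, the changes that could pass were limited by the spread between arrays, and the 31 members with a mean under 5 lay where array signals compress differences. The rise of ADAM12 and ADAMTS6 was near the 1.5-fold limit. Array signals do not compare transcript levels between genes or separate isoforms.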
